A study of Arabidopsis thaliana with 2 samples.

Results

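The expression of 6 small genes of the ECA1 type was followed in mature ovules of Arabidopsis thaliana with and without normal MYB98. They are DD11 (AT1G52970), AT2G24205, AT5G60964, AT5G60978, AT5G54062 and AT5G44555, 6 of the 33557 genes with values. DD11, AT2G24205, AT5G60964, AT5G54062 and AT5G44555 were selected on their lower FPKM in the myb98 library, and AT5G60978 was added as a paralog, so the fall of the first 5 is a description and supports nothing. The choice also asked for genes annotated without DUF784, a protein domain of unknown function. The RefSeq notes go against this for DD11, which they give DUF784, and they give AT5G54062 the related domain DUF1278.

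Ovules of myb98 and WT plants were compared, with 1 library each. The myb98 library came from ovules of the mutant myb98. The library labelled wild-type came from unpollinated ovules of ms1, a male-sterile line, which stood in for true wild-type plants and is called WT here. Any effect of ms1 or of the line background cannot be told apart from that of the myb98 mutation. Flowers were emasculated at floral stage 12, and ovules from about 50 pistils were dissected 36 hours later. No source used here gives the alleles, the accession background or whether pistils of several plants were pooled.

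MYB98 is a MYB transcription factor of the synergids, the cells beside the egg cell that draw the pollen tube to the ovule. It is known to bind DNA with a GTAAC core and to act on genes for small secreted proteins. ECA1-type proteins are short, carry a signal for secretion and are rich in cysteine. The best studied relatives are the EC1 peptides, which the egg cell secretes to activate sperm and which carry DUF1278. DD11 is named for its loss in a mutant without an embryo sac, and its promoter is widely used to mark synergids.

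The promoter windows are shown because GTAAC is the sequence MYB98 is known to bind and because copies of AT5G60964 can be set beside it. Each is read 5′ to 3′ on the strand of the gene from RefSeq TAIR10.1, from 250 bases before the annotated start to 50 bases after it, and capitals mark GTAAC or its complement GTTAC. In order, the windows lie at chr1:19737034-19737333 (minus strand), chr2:10291098-10291397, chr5:21938543-21938842, chr5:24530322-24530621, chr5:24525995-24526294 and chr5:24542249-24542548 (all plus strand).
DD11: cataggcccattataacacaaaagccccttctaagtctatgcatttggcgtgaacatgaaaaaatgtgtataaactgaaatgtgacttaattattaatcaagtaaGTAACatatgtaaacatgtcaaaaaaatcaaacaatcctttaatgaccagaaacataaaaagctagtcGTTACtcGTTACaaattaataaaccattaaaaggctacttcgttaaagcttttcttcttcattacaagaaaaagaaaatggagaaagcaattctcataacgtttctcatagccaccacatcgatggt
AT2G24205: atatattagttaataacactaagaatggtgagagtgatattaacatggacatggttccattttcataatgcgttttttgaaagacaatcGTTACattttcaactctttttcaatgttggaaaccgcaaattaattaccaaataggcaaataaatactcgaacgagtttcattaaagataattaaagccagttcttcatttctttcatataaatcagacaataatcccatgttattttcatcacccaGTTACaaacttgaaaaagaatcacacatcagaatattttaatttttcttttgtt
AT5G54062: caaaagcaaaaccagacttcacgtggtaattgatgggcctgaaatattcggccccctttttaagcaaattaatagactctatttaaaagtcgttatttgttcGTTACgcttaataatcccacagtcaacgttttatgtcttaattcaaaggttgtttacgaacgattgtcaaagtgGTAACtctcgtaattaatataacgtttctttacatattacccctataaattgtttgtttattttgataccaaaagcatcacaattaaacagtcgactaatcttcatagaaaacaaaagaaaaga
AT5G60964: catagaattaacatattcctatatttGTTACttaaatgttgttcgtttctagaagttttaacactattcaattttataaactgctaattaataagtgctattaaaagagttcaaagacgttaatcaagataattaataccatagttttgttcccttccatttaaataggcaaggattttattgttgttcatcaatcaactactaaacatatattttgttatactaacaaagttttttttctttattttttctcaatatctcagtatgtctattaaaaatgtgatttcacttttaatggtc
AT5G60945, the nearby copy of AT5G60964: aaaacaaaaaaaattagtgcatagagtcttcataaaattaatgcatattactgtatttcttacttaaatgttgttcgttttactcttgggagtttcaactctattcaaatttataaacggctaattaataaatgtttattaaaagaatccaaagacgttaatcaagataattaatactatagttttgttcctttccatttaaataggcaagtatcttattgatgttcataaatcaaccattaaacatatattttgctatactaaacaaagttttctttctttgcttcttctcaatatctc
AT5G60978: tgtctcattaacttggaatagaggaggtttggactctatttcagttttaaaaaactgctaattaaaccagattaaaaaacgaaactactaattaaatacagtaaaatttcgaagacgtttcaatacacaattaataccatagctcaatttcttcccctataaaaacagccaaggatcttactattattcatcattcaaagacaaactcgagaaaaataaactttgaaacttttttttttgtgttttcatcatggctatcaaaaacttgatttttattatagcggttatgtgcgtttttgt

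The unit is FPKM, sequenced fragments scaled to the length of the transcript and to the mapped fragments of the library, so levels of different genes can be compared per length. The log2 ratio was log2((myb98 FPKM + 1)/(WT FPKM + 1)), which understates the change of low genes. A gene with at least 1 FPKM in either library was called expressed, and an expressed gene was called lower or higher where its log2 ratio reached -2 or 2, 4-fold on this scale. With 1 library per genotype there is no replicate error, no test and no p-value, and none of the differences below has a replicate check. In whole ovules, fewer cells of a type and less RNA per cell cannot be told apart.

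By this rule 5 of the 6 genes were called lower and 0 higher in myb98 ovules. Over all 16303 expressed genes 0.712% were called lower and 0.282% higher, and since the 5 were selected on this contrast nothing is read from their count. Summed over the 6 genes, 4.56 FPKM stood in myb98 ovules against 301 FPKM in WT ovules, so 1.52% was left. AT5G60978 held 2.33 of the 4.56 FPKM.

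DD11 had 0.956 FPKM in myb98 ovules and 70.2 FPKM in WT ovules, 73.4-fold lower (log2 ratio -5.19). It ranked 444th in WT ovules and 15820th in myb98 ovules among the 16303 expressed genes. DD11 lies on chromosome 1 at 19736482 to 19737083, minus strand, in 1 exon of 602 nt. The annotated transcript begins at the start codon, so no leader is annotated.

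AT2G24205, which encodes a secreted protein of the family with no known role, had the highest WT level of the 6. It had 0.280 FPKM in myb98 ovules and 121 FPKM in WT ovules (log2 ratio -6.58). Among the 840 genes with a transcript within 50 nt of its own length, 5 had at least its WT level, itself included. Its myb98 value is close to the floor, since the lowest 5% of values above 0 among the 200 genes nearest in length lay at or below 0.0727 FPKM, so no fold is given. It spans 10291348 to 10291762 on the plus strand of chromosome 2, in 1 exon of 415 nt.

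AT5G54062, annotated as egg cell-secreted-like, had 0.102 FPKM in myb98 ovules and 27.5 FPKM in WT ovules (log2 ratio -4.69). The low values near its length reached 0.0427 FPKM in the myb98 library, so here too no fold is given. It lies on chromosome 5 at 21938793 to 21939637, plus strand, in 1 exon of 845 nt. Summed over 5 EC1 genes and WOX8, the egg cell list had 261 FPKM in myb98 ovules and 222 FPKM in WT ovules, with 0 of 6 genes called lower or higher. The widest ratio among the EC1 genes was that of EC1.5, at 56.8 FPKM in myb98 ovules and 24.3 FPKM in WT ovules. Since AT5G54062 was chosen by its lower value, nothing is read from the contrast with these genes.

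AT5G44555, a transcribed pseudogene of the family, was listed at 0 in myb98 ovules and had 3.15 FPKM in WT ovules (log2 ratio -2.05). A listed 0 can be a failed estimate. Of the 785 genes within 50 nt of its length, 599 were listed at 0 in the myb98 library and 588 in the WT library. Of these 785, 68 had at least its WT level, itself included, and 4 others among them were listed at 0 in the myb98 library. It lies on chromosome 5 at 17944809 to 17945167, plus strand. Of the 5 lower genes it lay nearest to the threshold. The family gene just outside was AT5G60945 (log2 ratio -1.92), followed by the DUF1278 gene AT5G42895 at 0.505 FPKM in myb98 ovules and 4.44 FPKM in WT ovules (-1.85).

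**Figure D1:**
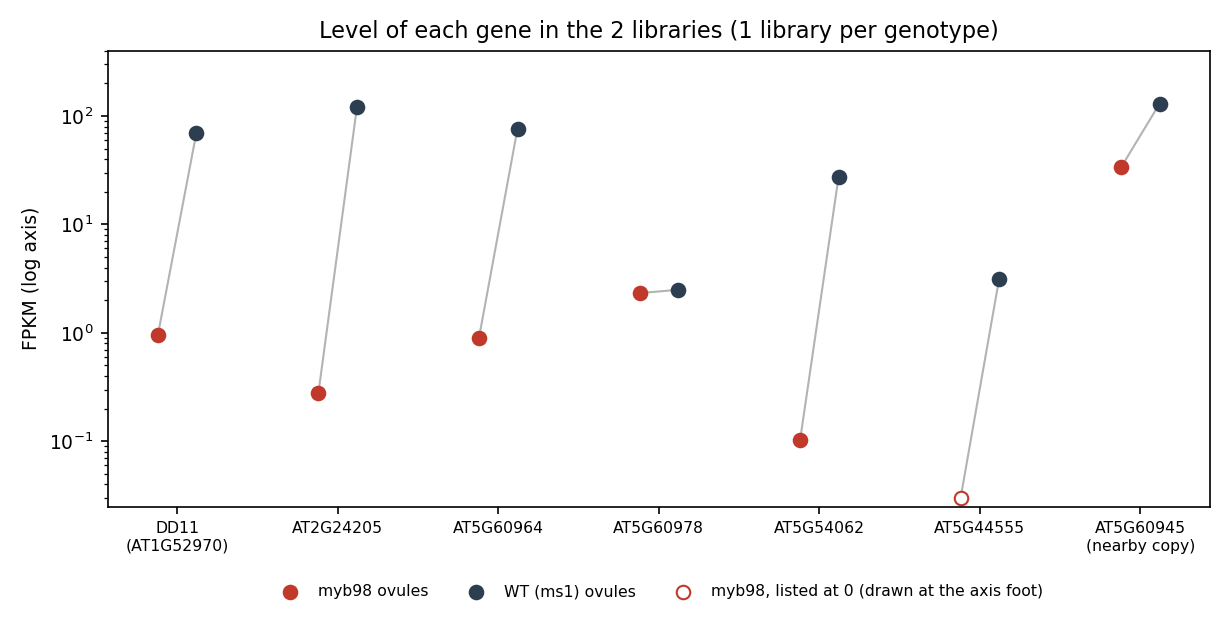
FPKM of each gene on a log axis, with the myb98 library on the left and the WT library on the right of each pair, 1 library per genotype. DD11, AT2G24205, AT5G60964 and AT5G54062 lie below 1 FPKM in myb98 ovules and between 27.5 and 121 FPKM in WT ovules, while AT5G60978 lies near 2 FPKM in both; the open circle is a listed 0, which has no place on a log axis.

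AT5G60964 stands in a short row of relatives on chromosome 5, all on the plus strand and each with 1 exon. AT5G60945 lies at 24526245 to 24526636, AT5G60964 at 24530572 to 24530924 and the transcribed pseudogene AT5G60978 at 24542499 to 24542855. The 3 genes had unlike ratios. AT5G60945 had 33.7 FPKM in myb98 ovules and 130 FPKM in WT ovules, 3.87-fold lower. AT5G60964 had 0.898 FPKM in myb98 ovules and 76.4 FPKM in WT ovules, 85.1-fold lower (log2 ratio -5.35). AT5G60978 had 2.33 FPKM in myb98 ovules and 2.49 FPKM in WT ovules (log2 ratio -0.07).

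AT5G60945 and AT5G60964 are close copies. Their proteins are both 112 residues long, of which 94 are identical (83.9%). Their transcripts are 91.2% identical over 352 aligned nt, and the longest stretch they share without a difference is 40 nt. Reads inside such stretches can be placed on either gene, and how the authors' counting split them was not tested. AT5G60978 is a more distant relative, with a transcript 62.1% identical to that of AT5G60964 from end to end and a longest shared stretch of 15 nt. Its best-scoring transcript match was AT5G42895 (83.7% over 369 aligned columns).

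The other members had no such near copy. No transcript in the annotation matched DD11, AT2G24205, AT5G60978, AT5G54062 or AT5G44555 at 90% identity over at least 50% of its length. For AT5G44555 the best-scoring match was AT5G44495, at 84.4%, which lies 18098 bases away on the opposite strand. It had 9.79 FPKM in myb98 ovules and 3.25 FPKM in WT ovules, where the pseudogene had a listed 0 and 3.15 FPKM. AT5G53742 matched 348 nt of AT5G54062 at 90.8%, and it was listed at 0 in both libraries.

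By protein, the closest gene outside the 6 was found for each of the 4 that encode one. For DD11 the DUF784 genes DD18 (AT1G45190) and AT3G11990 tied, each at 37.0% identity. DD18 was listed at 0 in myb98 ovules and had 21.2 FPKM in WT ovules. AT3G11990 had 10.9 FPKM in myb98 ovules and 111 FPKM in WT ovules. For AT2G24205 it was AT5G36658 (52.1%), which had 14.2 FPKM in myb98 ovules and 3.25 FPKM in WT ovules, the opposite direction. AT5G36658 has a near copy with a 98.3% identical transcript, so its values are uncertain. For AT5G54062 it was AT5G53742 (47.3%), or 85.2% over that shorter protein of 115 residues.

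Of the 4 encoded proteins, AT2G24205, AT5G60964 and AT5G54062 hold a like row of cysteines and DD11 departs from it. The genes were chosen as ECA1-type, a family known to be rich in cysteine, so the number of cysteines is no independent finding. Coding sequences were translated and the residues between cysteines counted. AT2G24205 and AT5G60964 have 7 cysteines each in 114 and 112 residues, DD11 has 6 in 149 residues and AT5G54062 has 14 in 207 residues. In 80 to 220 residues, 6253 measured nuclear proteins had a median of 3 cysteines, and 22.5% of them had 6 or more. AT5G60964 has 6 cysteines in a row of 9, 18, 0, 9 and 17 residues between them, so that the third and the fourth are neighbours. AT2G24205 has 9, 18, 0, 8 and 17, and both carry a further cysteine at residue 14.

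AT5G54062 holds this row in duplicate. The first lies at residues 48 to 108 and the second at residues 136 to 196, each with 9, 19, 0, 9 and 18 residues between cysteines, with an extra cysteine inside the second. The stretches are identical at 44 of 61 residues (72.1%). It was the only one of 117 family proteins examined to hold the row in duplicate. In DD11 the end of the row differs, with 7, 17, 0, 9 and 31 residues between cysteines. Other DUF784 proteins, such as AT4G08025, hold these same spacings after a further cysteine.

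**Figure D2:**
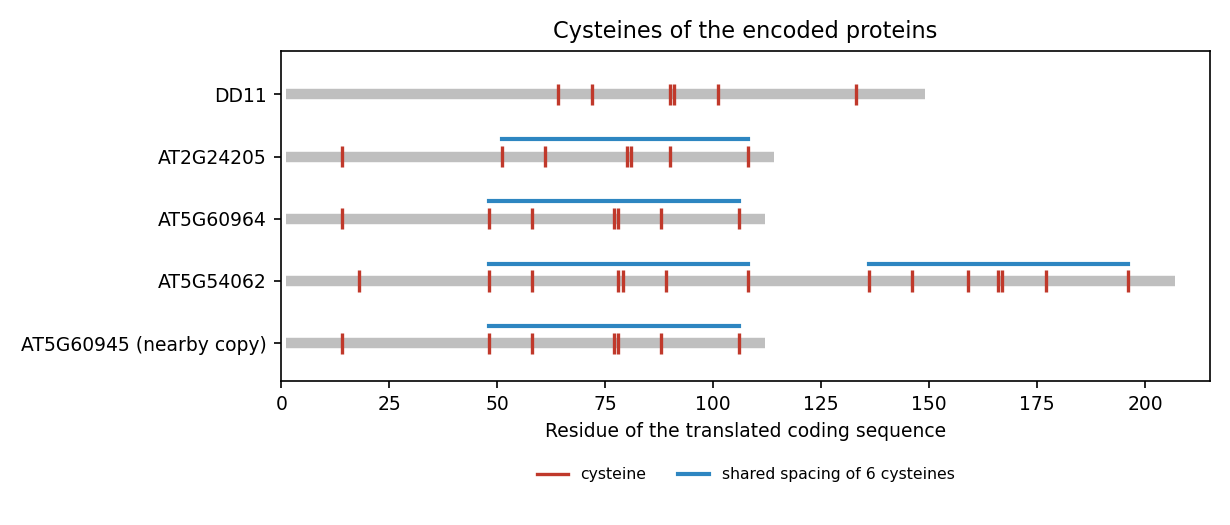
Position of each cysteine (red) along the translated protein, in residues, for the 4 genes that encode one and for AT5G60945. The blue bar marks a row of 6 cysteines with 7 to 9, 17 to 19, 0, 8 to 9 and 17 to 18 residues between them; AT5G54062 holds the row in duplicate, at residues 48 to 108 and 136 to 196, and DD11 does not hold it.

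With spacings of 7 to 9, 17 to 19, 0, 8 to 9 and 17 to 18 residues, limits set after these proteins were seen, the row was found in 31 of 55 ECA1-related proteins without DUF784 or DUF1278 and 12 of 21 DUF1278 proteins, the members included. It was found in 0 of 41 DUF784 proteins and 0 of 6138 other measured proteins of 80 to 220 residues. No EC1 peptide holds the row within these limits. EC1.1, EC1.2, EC1.3 and EC1.4 have 9, 18, 0, 9 and 21 residues between their cysteines, and EC1.5 has 9, 26, 0, 9 and 21. The pseudogenes have no annotated protein. The longest frame from an ATG is 106 codons in AT5G44555 and 81 codons in AT5G60978.

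The annotated classes of the family had unlike ratios. Of the other ECA1-related genes without DUF784 or DUF1278, 23 of 59 were expressed, and by the size rule 0 were called lower and 2 higher, beside 0.712% and 0.282% of all expressed genes. Their median log2 ratio was 1.35, against -0.00 over all expressed genes. It was 0.84 after each gene was set against the median ratio of the 200 genes nearest in transcript length, which itself had a median of 0.50 over the 23 genes. AT5G36470 had 11.0 FPKM in myb98 ovules and 0.722 FPKM in WT ovules. AT5G36659 had 4.71 FPKM in myb98 ovules and 0.405 FPKM in WT ovules, and AT5G36460 had 5.03 FPKM in myb98 ovules and 0.560 FPKM in WT ovules, the last just short of the rule. Of the 23, 14 have locus numbers AT5G36 (median log2 ratio 1.32) and 6 AT3G01 (1.35), so the class median rests largely on these groups. Values of single genes and the median are uncertain, because 14 of the 23 have another transcript at least 95% identical over at least 90% of their length. These are the AT5G36 genes, and the AT3G01 genes have no such copy.

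**Figure D3:**
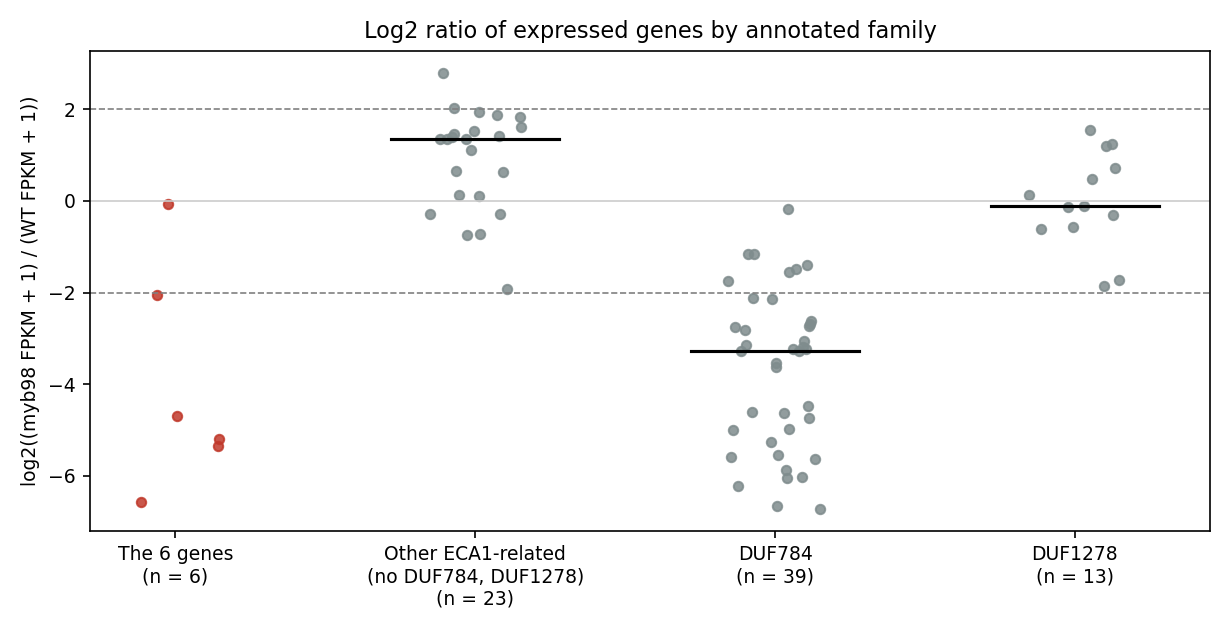
Log2 ratio of myb98 over WT for each expressed gene by annotated family, with the median as a black bar and the size rule as dashed lines. The 6 genes are shown without a median because 5 of them were chosen by their ratio; the other ECA1-related genes have a median of 1.35, DUF784 genes -3.28 and DUF1278 genes -0.11.

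The log2 ratios of the 5 lower genes lay within the range of the DUF784 genes, which ran from -6.72 to -0.17. Of 39 expressed DUF784 genes outside the 6, 32 were called lower and 0 higher, with a median log2 ratio of -3.28. Of 13 expressed DUF1278 genes, 0 were called lower and 0 higher (median -0.11), so AT5G54062, with its DUF1278 note, had a lower ratio than the 13 others, whose lowest was -1.85. Against genes of like transcript length, 2 of the 13 reached -2, AT5G42895 (-2.37) and AT2G27315 (-2.13), where AT5G54062 had -5.09. That difference between AT5G54062 and the 13 others was chosen by the ratio and is not a test. The DUF784 sum was 95.7 FPKM in myb98 ovules and 1597 FPKM in WT ovules, and that of the DUF1278 genes was 576 FPKM in myb98 ovules and 552 FPKM in WT ovules.

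**Figure D4:**
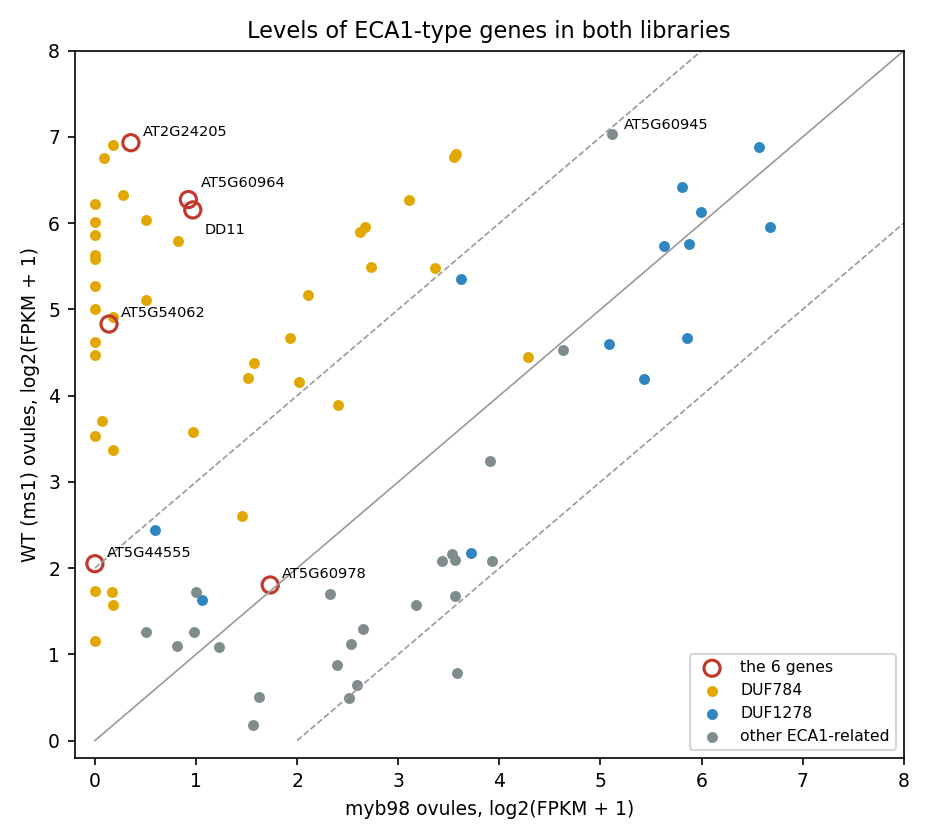
Level of each expressed ECA1-type gene as log2(FPKM + 1), with myb98 ovules on the horizontal axis and WT ovules on the vertical axis, 1 library each. The solid line marks equal levels and the dashed lines the size rule; DD11, AT2G24205, AT5G60964 and AT5G54062 lie at the upper left among DUF784 genes, and AT5G60978 lies near the line of equal levels.

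In the plane of both libraries, the nearest gene had DUF784 for DD11, AT2G24205, AT5G60964 and AT5G54062, but not for AT5G44555 or AT5G60978. Nearness was the Euclidean distance over the log2(FPKM + 1) values of the 2 libraries. With 2 points per gene it describes level and difference only. The lower members were selected on these same values, so genes near them share their lower myb98 value. Of the 111 genes outside the members called lower, 32 were DUF784 genes, and no likeness to DUF784 genes is read from nearness. The 5 nearest to DD11 were AT4G08025 (distance 0.39), AT1G47470 (0.47), AT5G22970 (0.51), AT5G50423 (0.67) and AT2G25482 (0.71), the first, second and last with DUF784. AT4G08025 had 0.764 FPKM in myb98 ovules and 54.4 FPKM in WT ovules. The nearest to AT2G24205 was AT5G42567 (0.18), the nearest to AT5G54062 was AT5G34905 (0.09) and the nearest to AT5G60964 was AT1G47470 (0.48), all with DUF784. AT5G44555 was nearest to AT3G19663 (0.16) and AT5G60978 to AT2G20495 (0.00), neither in the family.

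The genes adjacent to the members were looked at next. No annotated gene overlaps any of the 6. Of the 11 neighbouring genes with values, 5 were expressed and 5 were listed at 0 in both libraries. By the size rule 0 were called lower and 0 higher, with log2 ratios from -0.49 to 0.62, and with so few expressed genes that count is near the 0.712% and 0.282% of all expressed genes. Both neighbours of AT5G60964 are tRNA genes listed at 0, and its copy AT5G60945, 3935 bases away, was 3.87-fold lower. Next to DD11, 321 bases away, AtNug2 (AT1G52980), a GTP-binding protein gene, had 21.4 FPKM in myb98 ovules and 30.4 FPKM in WT ovules. Next to AT2G24205, LAP1 (AT2G24200), an aminopeptidase gene, had 51.2 FPKM in myb98 ovules and 47.1 FPKM in WT ovules. AT5G54064, a transcribed pseudogene 515 bases from AT5G54062, had 1.63 FPKM in myb98 ovules and 0.714 FPKM in WT ovules. VPS2.2 (AT5G44560), beside AT5G44555, had 17.2 FPKM in myb98 ovules and 15.3 FPKM in WT ovules.

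Promoter windows as defined above held GTAAC, on either strand, for 5 of the 6 genes, against 36.6% of 32809 windows of the same length. The 5 were the lower ones and AT5G60978 had none. The window of AT5G44555 is not printed above. DD11 had 3 matches, which begin 145, 77 and 70 bases before the start, and it was the only one of the 6 with the longer form GTAACNT, which 12.9% of all windows hold. AT2G24205 had 2, at 161 and 4 bases before the start. AT5G54062 had 2, at 148 and 74 bases, and AT5G60964 and AT5G44555 had 1 each, at 224 and 219 bases. The annotated start of DD11 is its start codon, while AT2G24205, AT5G54062 and AT5G60964 have leaders of 70, 64 and 14 nt. Distances are therefore not counted from like points in these genes. The shorter core TAAC was in all 6 windows and in 91.9% of all windows. A match describes the letters of the window and is not shown to be a binding site.

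**Figure D5:**
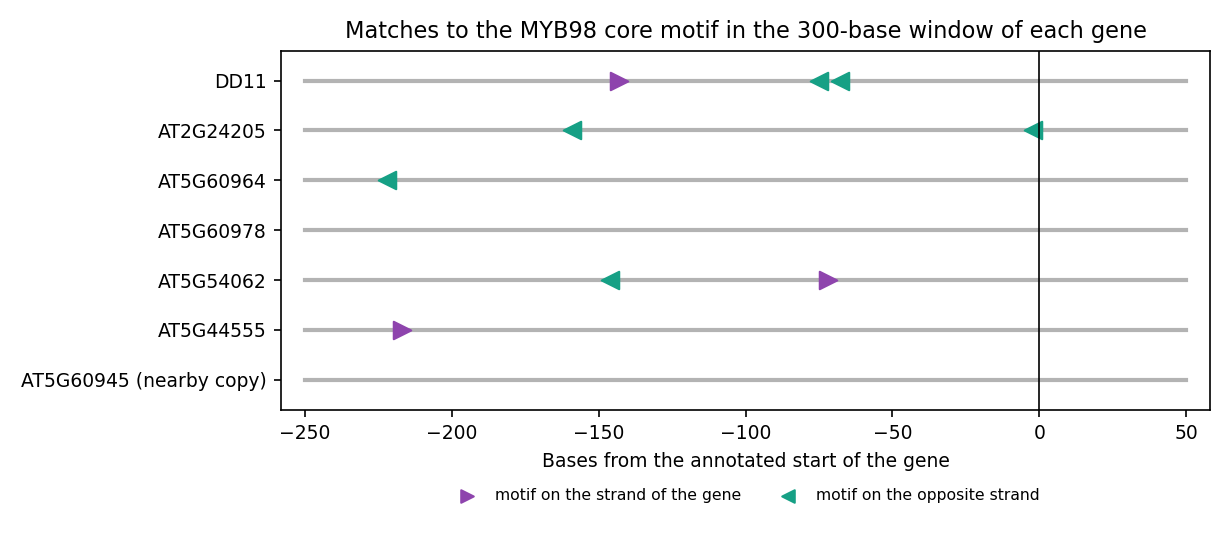
Matches to GTAAC on either strand in the window from 250 bases before to 50 bases after the annotated start, in bases from the start, for the 6 genes and AT5G60945. DD11 has 3 matches, AT2G24205 and AT5G54062 have 2 each, AT5G60964 and AT5G44555 have 1 each, and AT5G60978 and AT5G60945 have none.

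AT5G60945, which was just short of being called lower, had no GTAAC in its window. It had 33.7 FPKM in myb98 ovules against 130 FPKM in WT ovules. Aligned with the window of AT5G60964 (69.3% identity), it differs inside the match by G27C, counted from 1 at the 5′ end of the AT5G60964 window, with the AT5G60964 base first. Among the other ECA1-related genes, of which 0 of the 23 expressed were called lower, 34 of 59 windows held GTAAC and 30 held GTAACNT. Of these 59 genes, 32 have locus numbers AT5G36, so the windows may not be separate observations. How alike their windows are was not compared. Among DUF784 genes outside the 6, of which 32 of the 39 expressed were called lower, 42 of 52 held GTAAC and 29 held GTAACNT. Among DUF1278 genes outside the 6, of which 0 of the 13 expressed were called lower, 14 of 21 held GTAAC and 4 held GTAACNT. Of the 110 genes outside the 6 called lower and with a window, 58 held GTAAC and 33 held GTAACNT. The motif was not compared between lower and other genes within a class.

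MYB98 itself had 0.474 FPKM in myb98 ovules and 1.35 FPKM in WT ovules, a direction that goes with the labels (log2 ratio -0.67, not called lower). By estimate the libraries held 44700000 (myb98) and 49000000 (WT) fragments, and 15775 and 15742 genes reached 1 FPKM in these libraries. Their composition differed. The gene with the highest FPKM, the same in both, held 3.97% of summed FPKM in the myb98 library and 14.9% in the WT library. The integument and central cell marker lists had like sums in both libraries. The 6 integument and ovule genes, such as STK, the ovule identity gene, had 235 FPKM in myb98 ovules and 230 FPKM in WT ovules. The 8 central cell genes had 221 FPKM in myb98 ovules and 235 FPKM in WT ovules. Their log2 ratios went both ways, from -0.99 to 1.02, with 0 called lower or higher. The 5 carpel and transmitting tract genes had 41.4 FPKM in myb98 ovules and 54.0 FPKM in WT ovules. Pollen genes summed to 1.51 FPKM in myb98 ovules and 1.41 FPKM in WT ovules over 5 genes, of which 1 was expressed. That gene was ANX1, at 1.26 FPKM in myb98 ovules and 1.28 FPKM in WT ovules, and ANX2 was listed at 0 in both. The 9 synergid genes had 101 FPKM in myb98 ovules and 364 FPKM in WT ovules, and 3 of them were called lower, namely AT1G47470, DD18 and LURE1.2, a gene for a pollen tube attractant. The other 6 genes of that list were not called in either direction, with unlike ratios. ANNAT8, an annexin gene, had 1.68 FPKM in myb98 ovules and 4.80 FPKM in WT ovules. ENODL13, an early nodulin-like gene, had 34.9 FPKM in myb98 ovules and 16.2 FPKM in WT ovules. VDD, a transcription factor gene, had 19.2 FPKM in myb98 ovules and 18.9 FPKM in WT ovules. FER, a receptor kinase gene active in synergids and other cells, had 42.7 FPKM in myb98 ovules and 43.9 FPKM in WT ovules. Synergid number was not measured, and its part in the values of the 6 genes was not tested. Of 5 clock genes 3 were called lower and 1 higher, among them LHY, a morning gene, at 0.977 FPKM in myb98 ovules and 23.0 FPKM in WT ovules. No source used here gives the hour of harvest, and its part in the values of the 6 genes was not tested.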

How the data were processed

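RNA of mature ovules was sequenced from 2 genotypes, 1 library each. The authors deposited FPKM in a table with 1 column per library, and the unit was read from the values. The genome build TAIR10 and the tools Cuffdiff 2.2.1 and TopHat2 2.0.14 are named in the submitters' processing notes, while no source used here gives the annotation, the strandedness or the scaling. How reads of similar genes were split in Cuffdiff is not given in any source used here. Of 35548 rows, 33557 had values and 32810 matched RefSeq TAIR10.1, which gave coordinates, notes, transcripts and promoters. Depth was estimated from the lowest values of transcripts of at least 1500 nt and no read counts were used.

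Families were read from annotation notes, without the sentence on the best BLAST match. Proteins were translated from coding sequences and aligned globally (Biopython 1.88, BLOSUM62), and transcripts were searched with BLAST+ 2.17.0. The size rule and the length centring were tested on simulated data. Named genes were the 6 members, MYB98, adjacent genes, closest proteins, nearest patterns and the 4 largest ratios among the other ECA1-related genes, with markers. AT5G42895, AT2G27315, AT5G44495 and LHY were named after their values were seen. The members and lists were chosen with earlier results of these data known. Other pseudocounts, filters, scalings and motif windows were tried.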

Additional observations from a re-analysis of the deposited data

How the results depend on the processing

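No paired analysis was possible because each genotype has 1 library, and for the same reason no replicate could be left out. The count of lower members was 5, or 4 with a pseudocount of 5 FPKM or a minimum of 5 FPKM, where AT5G44555 left it (log2 ratio -0.70 with the pseudocount of 5). The ratios of DD11, AT2G24205, AT5G60964 and AT5G54062 stayed below -2 under each pseudocount and scaling tried. AT5G60945, at -1.92, passed the rule against genes of its own transcript length (-2.44), as did 2 of 13 DUF1278 genes, AT5G42895 (-2.37) and AT2G27315 (-2.13). Of the other ECA1-related genes, 2 were called higher; the count was 8 with a pseudocount of 0.1, 0 with 5, 1 after centring on the median ratio, 1 against genes of like length, 14 with a size rule of 1 and 1 with a minimum of 5 FPKM. The count called lower was 0, or 1 against genes of like length and 1 with a size rule of 1. Over all genes, 116 were called lower and 46 higher; with a pseudocount of 0.1 these were 189 and 147, with 5 they were 60 and 13, and with a size rule of 1 they were 447 and 481. Against genes of like length 26 were called higher. GTAAC was in 5 members with 250 bases before the start and, chosen after seeing the data, with 500 bases (53.6% of all windows). GTAACNT was in 1 member, DD11, in the windows as first defined. With 500 bases it was in 3, DD11, AT5G54062 and AT5G44555, and in 21.5% of all windows. Identity over the shorter protein, in place of all alignment columns, gave 43.9% for AT2G24205 and AT5G54062, against 24.2%. Depth limits the myb98 values of AT2G24205 and AT5G54062, which lie near the lowest values of their length.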
